A study of Mus musculus with 16 samples.

Results

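The AP-1 subunits and a small set of other immediate early genes were examined in intervertebral discs of the mouse tail. The set held 10 genes, Fos, Fosb, Fosl1, Fosl2, Jun, Junb, Jund, Egr1, Atf3 and Ier3, each found by its exact gene name among the 49315 genes of the deposited table. All 10 passed the filter on low values (at least 1 TPM in at least 3 libraries), as did 24188 genes in all. The discs came from 16 mice, with 4 tail discs of a mouse pooled into a single library. They were wild type (WT) or carried Adam8EQ, an allele of the membrane-anchored metalloprotease Adam8 that the labels describe no further. Groups were intact wild-type discs (3 mice), injured wild-type discs (4 mice), intact mutant discs (4 mice) and injured mutant discs (5 mice). The series title names DBA, an inbred strain, for the comparison mice; the strain background of the mutants, the kind of injury, the time after it, and the age of the mice are not given in the sources used here.

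AP-1 is a transcription factor assembled from pairs of basic leucine zipper proteins. A Fos protein (Fos, Fosb, Fosl1 or Fosl2) pairs with a Jun protein (Jun, Junb or Jund), while Jun proteins can also pair with each other or with ATF proteins such as Atf3. Many of these genes belong to the immediate early genes, whose transcription is switched on within minutes of growth factors, cytokines, stress or mechanical load, without new protein synthesis, by MAP kinases acting on factors already bound at their promoters. Fos and Fosb are usually induced briefly, whereas Fosl1 and Fosl2, which lack the strong activation domain of Fos, are induced later and last longer. In cartilage and disc cells AP-1 is known for driving matrix metalloproteinase and cytokine genes.

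Expression was given in TPM, an abundance scaled by gene length and by the library's total. The values implied 10197004 to 24837216 reads per library. Fosl1 had 12 to 1159 implied reads and Atf3 34 to 535, the smallest lowest and smallest highest values of the 10 genes, while Fosl2 had 2104 to 12058. The disc genes Acan and Col2a1 lay at 2426 to 7024 and 657.8 to 9312 TPM across all libraries. Of the notochordal markers, Noto and Shh did not pass the filter on low values. Changes are given as differences of mean log2(TPM + 1) with a standard error from limma, a scale that understates changes of low genes. A gene was called when its limma p-value, adjusted over all genes tested in the comparison, was under 0.05. The labels do not say whether mice of a group shared a cage, litter or day.

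**Figure D1:**
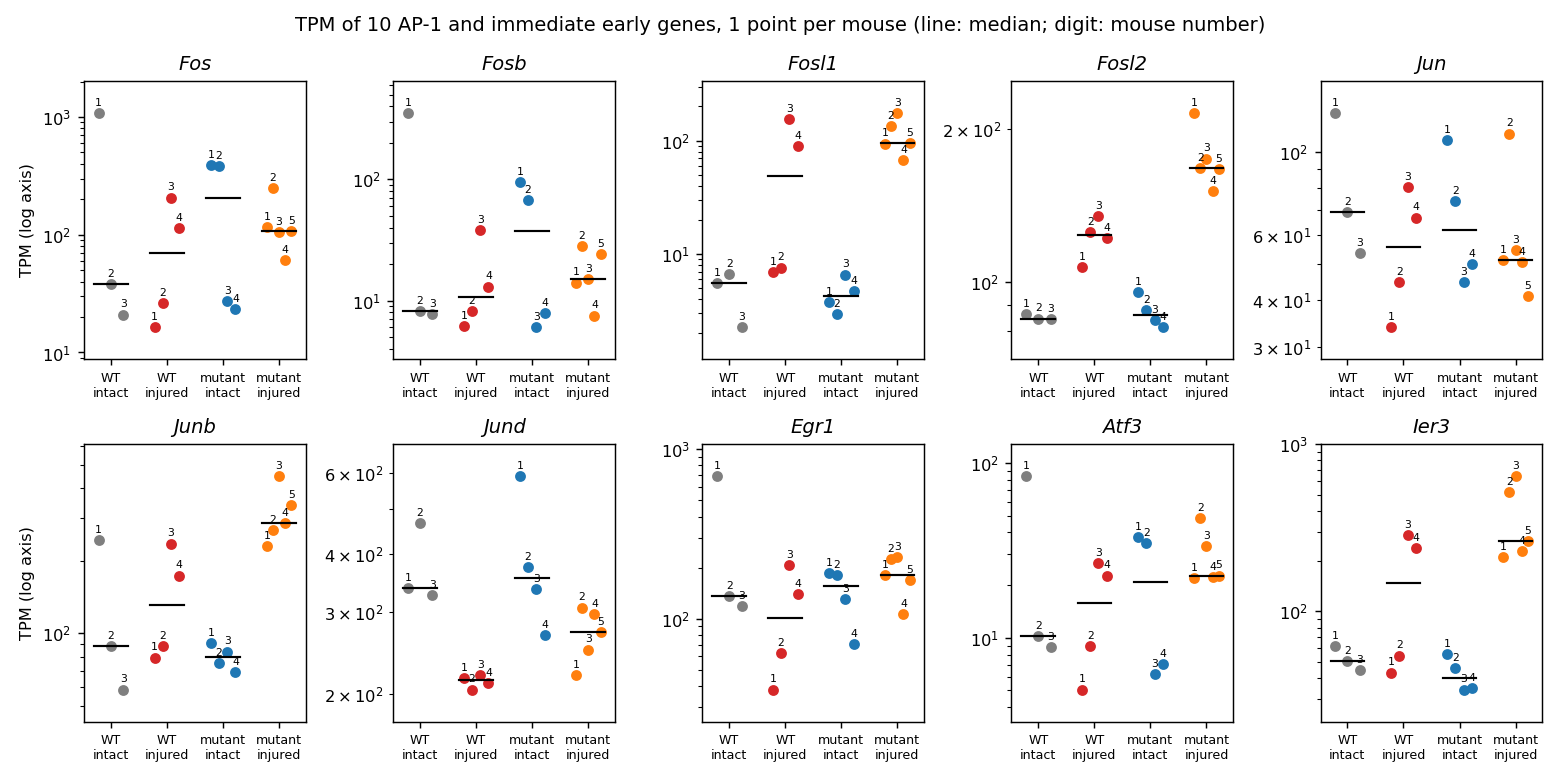
TPM of the 10 genes on log axes, 1 point per mouse with its number, and a line at each group's median. Fosl1, Fosl2, Junb and Ier3 separate injured from intact mutant discs, while Fos, Fosb and Atf3 are spread widely among intact mice.

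In mutant discs injury raised Fosl1, Fosl2, Junb and Ier3. These were 4 of the 10 genes, all higher, in a comparison where 13.1% of all tested genes were called higher and 30.8% were called in either direction. In the wild type none of the 10 was called, against 0.116% of all genes. There 3 of the 10 (Fosl1, Fosl2 and Jund) had an unadjusted p under 0.05, against 17.2% of all genes. Fos, Fosb, Jun, Jund, Egr1 and Atf3 passed in neither genotype. Because these are bulk samples, a change in the number of cells of a type and a change in RNA per cell cannot be told apart.

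Fosl1 (ENSMUSG00000024912; GRCm38 chromosome 19, 5447547 to 5455946, plus strand, protein coding), which encodes Fra-1, showed the largest rise. It lay at 5.57, 6.63 and 2.27 TPM in intact wild-type mice 1 to 3 and at 3.79, 2.95, 6.58 and 4.72 TPM in intact mutants 1 to 4. In injured mutants 1 to 5 it reached 94.2, 134.4, 174.8, 67.8 and 95.3 TPM. Every injured mutant thus lay at least an order of magnitude above every intact mouse. The change in mutants was 4.34 ± 0.73 (SE, adjusted p 0.001181 by limma). The mean was 4.51 ± 1.56 TPM in intact mutants (SD, n = 4) and 113.3 ± 41.8 TPM in injured ones (SD, n = 5). In injured wild-type mice 1 to 4 Fosl1 lay at 6.94, 7.59, 155.1 and 89.2 TPM. Mice 1 and 2 were just above the highest intact wild-type value of 6.63 TPM, whereas mice 3 and 4 were within the range of injured mutants. The wild-type change of 2.52 ± 0.83 (SE, adjusted p 0.1772 by limma) did not pass the threshold.

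Fosl2 (ENSMUSG00000029135; chromosome 5, 32135801 to 32157842, plus strand, protein coding), which encodes Fra-2, varied little within groups, with a highest value at most 1.43 times the lowest. Intact wild-type mice 1 to 3 held 86.7, 84.8 and 84.5 TPM, and intact mutants 1 to 4 held 95.5, 88.0, 84.1 and 81.6 TPM. Injured wild-type mice 1 to 4 held 107.0, 125.4, 134.9 and 122.1 TPM. Injured mutants 1 to 5 held 215.3, 167.6, 175.1, 151.0 and 166.8 TPM. The 3 levels did not overlap: all 7 intact mice lay below all 4 injured wild-type mice, which in turn lay below all 5 injured mutants. In mutants the change with injury was 0.99 ± 0.098 (SE, adjusted p 0.0001172 by limma), close to a doubling of the mean TPM (ratio 2.01). In the wild type it was 0.51 ± 0.11 (SE, adjusted p 0.1009 by limma), which missed the threshold. Without injured wild-type mouse 1 the wild-type change was 0.57 and was called (adjusted p 0.034 by limma). It was also called without injured mutant mouse 1 (adjusted p 0.04382 by limma). That mouse does not enter the wild-type change, which stayed at 0.51 while the error, shared by all groups, fell to 0.089.

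Fos (ENSMUSG00000021250; chromosome 12, 85473890 to 85477273, plus strand, protein coding) and Fosb (ENSMUSG00000003545; chromosome 7, 19302696 to 19310051, minus strand, protein coding) encode the classical, briefly induced Fos proteins. Their proximal promoters are shown beside that of Junb (ENSMUSG00000052837; chromosome 8, 84974484 to 84978718, minus strand, protein coding), because these 3 hold the letters TGACG on the coding strand, and because Fos and Fosb peaked in the same 3 mice while Junb rose with injury in mutants. TGACG is the core of the cAMP response element, a motif that CREB and ATF proteins recognise. The windows are the 150 bases before the RefSeq start on GRCm38.p6, at chr12:85473740-85473889 (plus strand), chr7:19310046-19310195 (minus strand) and chr8:84978749-84978898 (minus strand). They are written 5′ to 3′ along the gene, with TGACG and the TATA box letters TATAAA in capitals.
Fos: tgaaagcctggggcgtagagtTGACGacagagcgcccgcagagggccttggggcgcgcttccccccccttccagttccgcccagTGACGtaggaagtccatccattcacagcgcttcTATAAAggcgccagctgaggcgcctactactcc
Fosb: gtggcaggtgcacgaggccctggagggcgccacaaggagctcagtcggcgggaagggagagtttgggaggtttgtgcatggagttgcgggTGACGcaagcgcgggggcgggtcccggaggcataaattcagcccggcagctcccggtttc
Junb: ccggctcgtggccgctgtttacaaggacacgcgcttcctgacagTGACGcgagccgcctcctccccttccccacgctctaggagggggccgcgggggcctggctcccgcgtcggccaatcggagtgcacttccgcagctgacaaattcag

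Counted back from the start, TGACG began at positions -129 and -66 in Fos, -60 in Fosb and -106 in Junb, and TATAAA at -33 in Fos. Of the 10 genes, 8 had an entry in the RefSeq promoter table; Fosl1 and Egr1 were the others. In the 250 bases before the start, TGACG on either strand was present in 4 of the 8 (Fos, Fosb, Junb and Atf3) and in 17.8% of all 32851 promoters. TATAAA, searched on the coding strand, was present in 1 of 8 and in 7.59% of all. The AP-1 site TGACTCA, the full cAMP response element TGACGTCA (which contains TGACG) and the CArG box, the motif of serum response factor, were searched on both strands. Each was found in 0 of the 8 windows, against 4.46%, 1.55% and 1.47% of all promoters. These are matches of letters in a short window and show neither binding nor its absence.

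Fos ranged more widely among intact discs than among injured ones. It lay at 1079, 37.8 and 20.9 TPM in intact wild-type mice 1 to 3, and at 392.7, 380.8, 27.4 and 23.2 TPM in intact mutants 1 to 4. In injured wild-type mice 1 to 4 it lay at 16.5, 26.3, 207.1 and 114.3 TPM, and in injured mutants 1 to 5 at 116.2, 250.4, 105.0, 60.8 and 107.9 TPM. Intact wild-type mouse 1 and intact mutants 1 and 2 were the highest 3 of all 16 libraries. The other 4 intact mice lay below every injured mutant. With injury Fos differed by -0.74 ± 1.32 in the wild type (SE, adjusted p 0.7975 by limma) and 0.20 ± 1.16 in mutants (SE, adjusted p 0.913 by limma). Their 95% intervals, -3.56 to 2.08 and -2.27 to 2.68, leave large changes in either direction possible. The sign turned with single mice: without intact wild-type mouse 1 the wild-type difference was 0.99, and without intact mutant 3 or 4, or injured mutant 2, the mutant difference was -0.41, -0.48 or -0.075.

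Fosb had the same 3 libraries at the top. It reached 352.2, 8.16 and 7.77 TPM in intact wild-type mice 1 to 3 and 94.5, 67.0, 6.06 and 7.84 TPM in intact mutants 1 to 4. Injured mice lay between 6.15 and 37.9 TPM in the wild type and between 7.53 and 28.3 TPM in mutants, so all groups overlapped. The injury differences were -1.15 ± 1.19 in the wild type (SE, adjusted p 0.6354 by limma) and -0.55 ± 1.04 in mutants (SE, adjusted p 0.7241 by limma). Without intact wild-type mouse 1 the wild-type difference was 0.62, and without intact mutant 1 the mutant difference was 0.09.

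Library names in the labels start with A8 for mutants 1 and 2 of both treatments, M for the other mutants and D for every wild-type mouse. What these letters stand for is not given in the sources used here, and the letter D and the wild-type genotype cannot be told apart. Intact mutants 1 and 2, with high Fos and Fosb, are the A8 mice, but intact wild-type mouse 1 shares its D with wild-type mice at low levels. Within A8 mutants the injury difference of Fos was -1.18 ± 1.69 (SE, adjusted p 0.6608 by limma), and within M mutants it was 1.77 ± 1.47 (SE, adjusted p 0.4666 by limma). For Fosl1 the same 2 values were 4.71 ± 1.29 (SE, adjusted p 0.03891 by limma) and 3.998 ± 1.155 (SE, adjusted p 0.08019 by limma). For Fosl2 they were 1.04 ± 0.15 (SE, adjusted p 0.013 by limma) and 0.98 ± 0.11 (SE, adjusted p 0.005301 by limma). The direction of Fosl1 and Fosl2 was thus the same in both subsets, and that of Fos was not.

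Among the Jun genes, Junb rose with injury in mutants. It lay at 90.9, 75.0, 83.9 and 69.1 TPM in intact mutants 1 to 4 and at 229.8, 268.1, 450.0, 287.2 and 339.2 TPM in injured mutants 1 to 5, with no overlap. The change was 1.94 ± 0.38 (SE, adjusted p 0.002338 by limma). Intact wild-type mice 1 to 3 held 243.3, 88.2 and 58.3 TPM, and injured wild-type mice 1 to 4 held 79.2, 88.5, 235.5 and 173.3 TPM. These ranges overlapped. Intact mouse 1, the mouse with the highest Fos, lay above all injured wild-type mice, and intact mouse 2 lay above injured mouse 1. The wild-type difference was 0.27 ± 0.43 (SE, adjusted p 0.7717 by limma), and its sign turned without intact mouse 3 (-0.17) or injured mouse 3 (-0.016). Within the A8 and M mutants the rise of Junb was 1.58 ± 0.64 (SE, adjusted p 0.1185 by limma) and 2.197 ± 0.575 (SE, adjusted p 0.06421 by limma), so neither subset alone passed the threshold.

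Jun (ENSMUSG00000052684; chromosome 4, 95049034 to 95052222, minus strand, protein coding), the founding member of the family, stayed within overlapping ranges. It spanned 53.5 to 127.4 TPM in intact and 33.9 to 80.5 TPM in injured wild-type mice, and 44.8 to 108.0 TPM in intact and 41.1 to 112.3 TPM in injured mutants. The injury differences were -0.53 ± 0.40 in the wild type (SE, adjusted p 0.4939 by limma) and -0.16 ± 0.35 in mutants (SE, adjusted p 0.7559 by limma). The 95% interval in mutants was -0.91 to 0.58.

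Jund (ENSMUSG00000071076; chromosome 8, 70698949 to 70700616, plus strand, protein coding), usually the most constant Jun gene, was the most abundant of the 3 in intact discs. It held 338.3, 466.1 and 326.0 TPM in intact wild-type mice 1 to 3 against 216.3, 204.0, 219.2 and 210.9 TPM in injured wild-type mice 1 to 4. All injured wild-type mice lay below all intact ones, yet the difference of -0.80 ± 0.21 (SE, adjusted p 0.1311 by limma) did not pass the threshold. Mutants overlapped, with 590.5, 375.4, 335.6 and 267.3 TPM in intact mice 1 to 4 and 219.0, 306.7, 248.8, 297.0 and 271.7 TPM in injured mice 1 to 5. Their difference was -0.49 ± 0.18 (SE, adjusted p 0.05563 by limma), just above the threshold. It passed in 4 of 28 alternative analyses, without intact mutant 4 (adjusted p 0.01914), within A8 mutants (0.04527), with quantile normalization (0.04795) and with a filter at a mean of 5 TPM (0.04752).

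Levels of different genes can be set side by side because TPM are scaled by length. In the summed TPM of the 4 Fos genes, Fosl1 held 0.547% to 5.30% in intact mutants and 21.4% to 37.2% in injured mutants. In injured wild-type mice 1 to 4 its share was 5.08%, 4.53%, 29.0% and 26.3%, against 0.365% to 4.82% in intact wild-type mice. In the summed TPM of the 3 Jun genes, Junb held 11.5% to 18.1% in intact mutants and 39.0% to 59.7% in injured mutants. Jund held 69.2% to 74.8% in intact and 33.0% to 46.8% in injured mutants. In the wild type these shares overlapped. Junb held 13.3% to 34.3% in intact and 24.0% to 44.0% in injured mice, and Jund 47.7% to 74.8% and 41.0% to 65.7%. The Jun genes added up to 541.1 ± 174.9 TPM in intact mutants (SD, n = 4) and 645.5 ± 93.2 TPM in injured mutants (SD, n = 5). Shares follow from the levels above and were not tested.

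**Figure D2:**
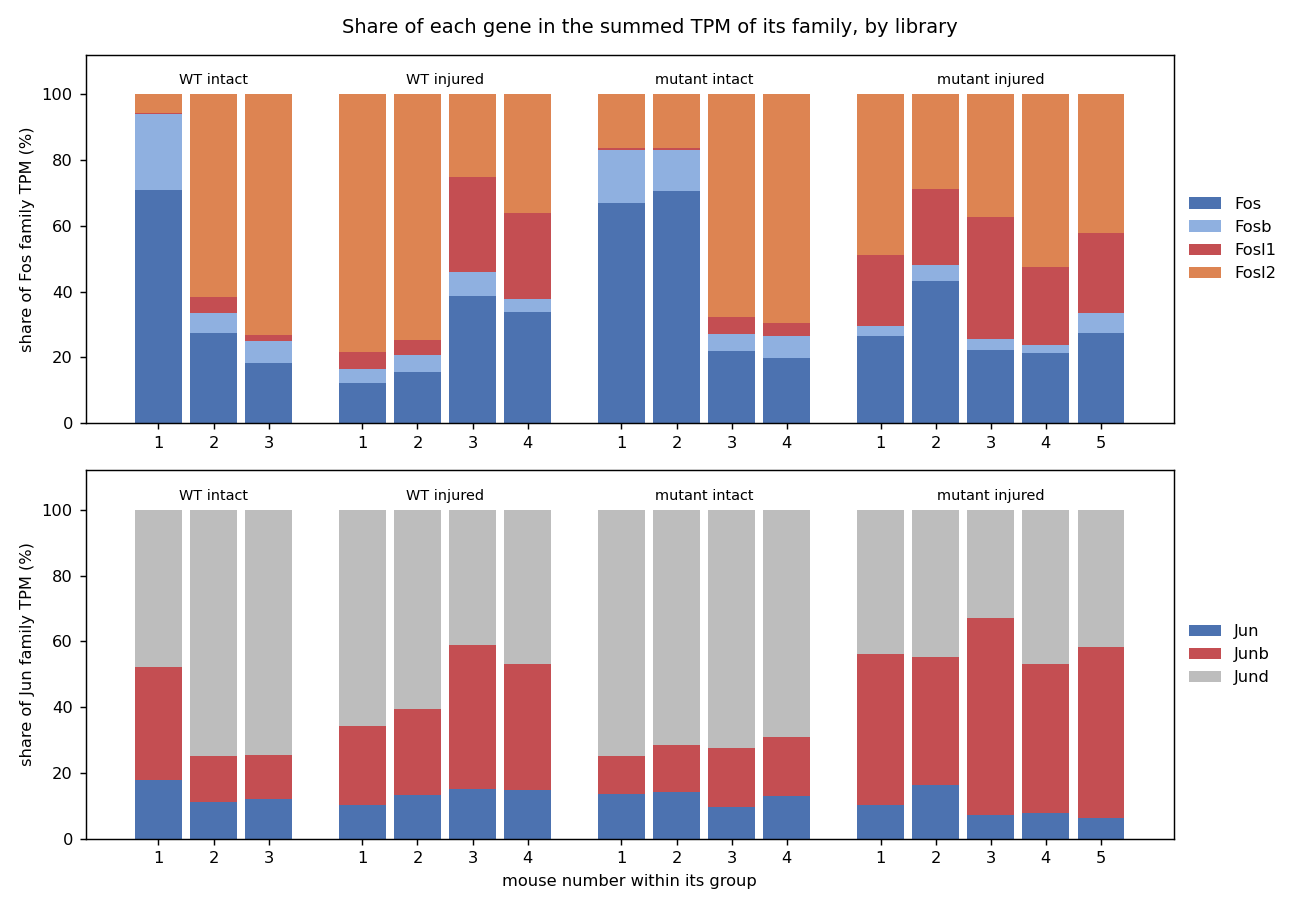
Share of each gene in the summed TPM of the Fos genes (top) and the Jun genes (bottom), 1 bar per mouse. Fosl1 holds at least 21.4% in injured mutants and at most 5.30% in intact mutants; Fos holds over 60% only in intact wild-type mouse 1 and intact mutants 1 and 2.

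Ier3 (ENSMUSG00000003541; chromosome 17, 35821684 to 35822923, plus strand, protein coding), an early response gene known as a regulator of cell survival, rose with injury in mutants. It held 55.4, 45.6, 34.0 and 34.5 TPM in intact mutants 1 to 4 and 210.1, 517.8, 647.1, 228.9 and 264.4 TPM in injured mutants 1 to 5. The groups did not overlap, and the change was 2.99 ± 0.51 (SE, adjusted p 0.001262 by limma). In the wild type, intact mice held 62.1, 50.3 and 44.2 TPM and injured mice 43.0, 54.3, 285.5 and 239.9 TPM. Injured mice 1 and 2 were at the intact level and mice 3 and 4 in the mutant range, and the difference was 1.11 ± 0.58 (SE, adjusted p 0.3372 by limma). Within A8 mutants the rise was 2.69 ± 0.85 (SE, adjusted p 0.05695 by limma), and within M mutants it was 3.27 ± 0.76 (SE, adjusted p 0.04696 by limma).

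Egr1 (ENSMUSG00000038418), a zinc finger immediate early factor, followed Fos in its highest library. It lay at 695.1, 135.1 and 118.9 TPM in intact wild-type mice 1 to 3, and at 38.1, 62.3, 206.4 and 138.8 TPM in injured wild-type mice 1 to 4. Intact mutants 1 to 4 held 185.2, 179.6, 130.5 and 70.4 TPM, and injured mutants 1 to 5 held 179.8, 225.3, 230.7, 106.4 and 169.4 TPM. All groups overlapped. The injury differences were -1.29 ± 0.62 in the wild type (SE, adjusted p 0.3 by limma) and 0.41 ± 0.54 in mutants (SE, adjusted p 0.6031 by limma).

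Atf3 (ENSMUSG00000026628; chromosome 1, 191170296 to 191218039, minus strand, protein coding), a stress-induced ATF factor that pairs with Jun proteins, was highest in intact wild-type mouse 1 as well. It held 84.3, 10.2 and 8.82 TPM in intact wild-type mice 1 to 3 and 37.6, 34.9, 6.17 and 7.05 TPM in intact mutants 1 to 4. Injured wild-type mice 1 to 4 held 5.05, 8.94, 26.7 and 22.7 TPM, and injured mutants 1 to 5 held 22.03, 48.3, 33.5, 22.2 and 22.7 TPM. Injured and intact ranges overlapped in both genotypes. The injury differences were -0.58 ± 0.79 in the wild type (SE, adjusted p 0.7254 by limma) and 0.80 ± 0.69 in mutants (SE, adjusted p 0.4091 by limma). Without intact wild-type mouse 1 the wild-type difference was 0.43, and within A8 mutants the mutant difference was -0.14.

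**Figure D3:**
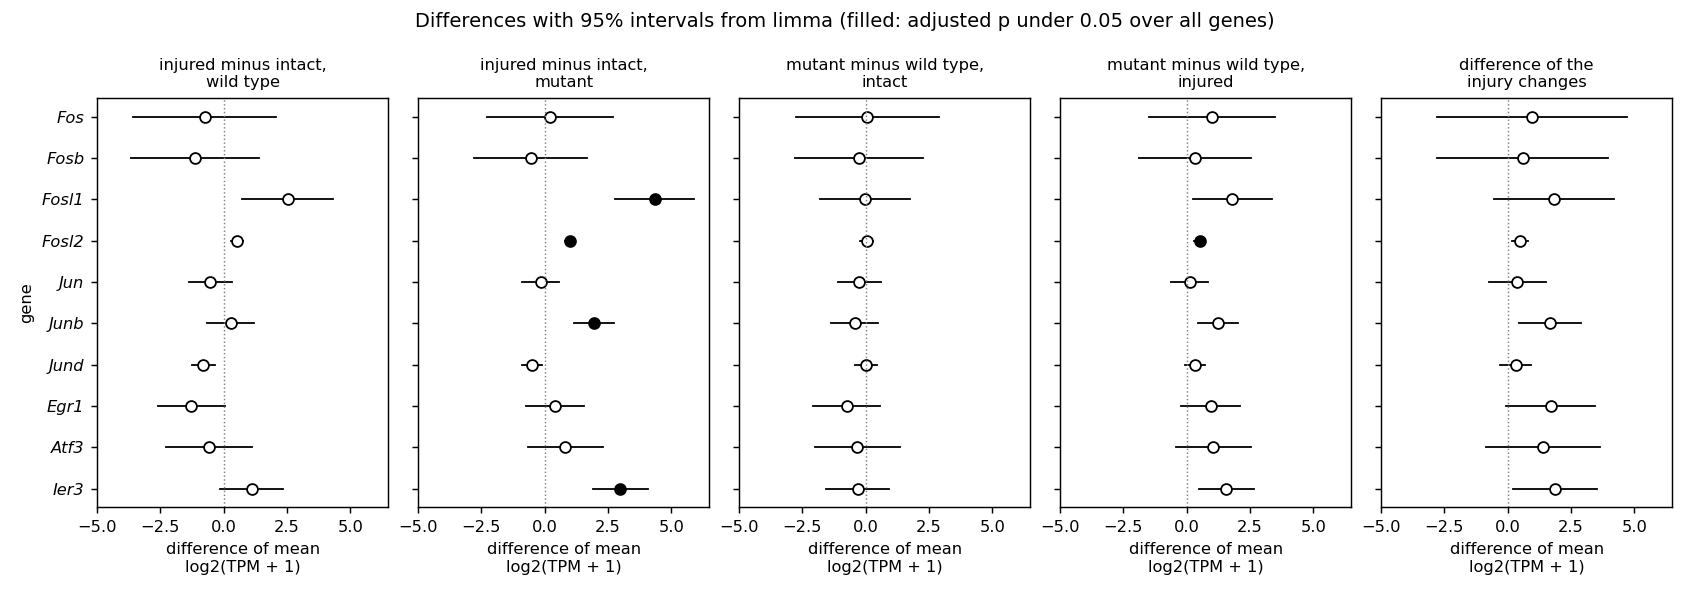
Differences of mean log2(TPM + 1) for the 10 genes in the 5 comparisons, with 95% intervals from limma; filled points had an adjusted p under 0.05. Fosl1, Fosl2, Junb and Ier3 are filled for injury in mutants and Fosl2 alone for genotype in injured discs.

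Ordered by mean TPM, Fosl1, Fosl2, Junb and Ier3 ran from injured mutant to injured wild type to the intact groups. For Fosl2 the ranges of injured mutant, injured wild-type and intact mutant discs were all separate. For Fosl1 only the step from injured to intact wild-type discs was free of overlap, and for Junb and Ier3 no neighbouring groups were separate. By mean, Fos, Fosb and Jun ran from intact wild type through intact mutant and injured mutant to injured wild type, and Egr1 and Atf3 were also highest in intact wild-type discs. For these 5 genes every pair of neighbours overlapped, and intact wild-type mouse 1 set the top place. By median, intact wild-type discs were the lowest group for Fos (37.8 TPM, against 70.3 in injured wild-type, 107.9 in injured mutant and 204.1 in intact mutant discs). They were the lowest by median for Fosb (8.16 TPM) and Atf3 (10.2 TPM) too. The median of Egr1 was 135.1 TPM there, below intact mutants at 155.0 and injured mutants at 179.8 TPM. For Jund, highest in intact mutants, intact wild-type discs lay clear of injured mutants, the next group in its order. Ranges of all injured mice above all intact mice were seen for 2 of the 10 genes in the wild type (Fosl1 and Fosl2; 9.22% of all tested genes) and 4 of 10 in mutants (12% of all).

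The genotypes were compared within each treatment. In intact discs 0 of the 10 genes differed by limma (0.0165% of all tested genes were called), and 0 had an unadjusted p under 0.05. The largest estimate there was -0.75 ± 0.62 for Egr1 (SE, adjusted p 1 by limma). In injured discs Fosl2 was higher in mutants, by 0.51 ± 0.098 (SE, adjusted p 0.03372 by limma), at 175.1 ± 24.1 TPM (SD, n = 5) against 122.4 ± 11.6 TPM (SD, n = 4). It was the single gene of the 10 called in a comparison with 0.918% of all genes called. It was also the single gene with every injured mutant above every injured wild-type mouse (0.905% of all genes). The estimate kept its direction in all 28 alternatives, from 0.42 to 0.64, but the call held in 14 of them, with adjusted p from 0.01035 to 0.2208. The call was lost when injured wild-type mouse 1, 2 or 4 or injured mutant 1, 3 or 5 was left out. It was also narrowly lost without intact wild-type mouse 1 or intact mutant 2 or 4 (adjusted p 0.05084 to 0.05121 by limma). Those intact mice do not enter the difference, which stayed at 0.51. Only the error shared by all groups and the adjustment over all genes moved. Within A8 mutants the difference was 0.64 ± 0.13 (SE, adjusted p 0.1565 by limma) and within M mutants 0.42 ± 0.09 (SE, adjusted p 0.05186 by limma).

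Fosl1, Junb and Ier3 had estimates of 1.79 ± 0.73, 1.23 ± 0.38 and 1.56 ± 0.51 (SE) between injured genotypes, with limma adjusted p of 0.1881, 0.1011 and 0.1188. Each was called when injured wild-type mouse 3, the injured wild-type mouse with the highest level of all 3 genes, was left out (adjusted p 0.02754, 0.02757 and 0.0261), which brought the count to 4 of 10. Without that mouse, and with the filter on low values applied anew, 2272 genes were called, against 222 of 24188 with it. In all, 4 of the 10 genes had an unadjusted p under 0.05 there, against 20.3% of all genes. All 10 estimates were above 0, with a median of 0.97 beside -0.09 over all tested genes. These estimates share the same mice, so their signs are not independent, and the share of all genes above 0 was not counted.

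Whether injury acted differently in the genotypes was tested as an interaction, and 0 of the 10 genes passed by limma (0% of all genes). At an unadjusted p under 0.05 there were 3 of the 10, against 8.18% of all genes. These were Fosl2 at 0.48 ± 0.15, Junb at 1.67 ± 0.57 and Ier3 at 1.87 ± 0.78 (SE), with limma adjusted p of 0.4879, 0.5057 and 0.5639. For Fosl1 the difference of the rises was 1.83 ± 1.11 (SE, adjusted p 0.6904 by limma), with a 95% interval of -0.55 to 4.20. The calls in mutants and their absence in the wild type therefore do not show that the genotypes differ in their response.

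Genes whose pattern over the 16 libraries was nearest to the 3 most variable members were sought among 11927 other genes, by the root mean square difference of log2(TPM + 1) after centring. Nearest to Fosl1 were Lif, a cytokine of the interleukin-6 family, at 0.43, Hmga2, a chromatin architectural protein, at 0.47 and Ereg, a ligand of the EGF receptor, at 0.51. In injured wild-type mice 1 to 4 Lif held 1.10, 1.19, 31.6 and 39.1 TPM and Ereg held 3.80, 5.56, 176.6 and 146.0 TPM. Chosen for likeness to Fosl1, both stayed near the intact level in mice 1 and 2 and reached the level of injured mutants (17.9 to 61.5 and 33.2 to 170.5 TPM) in mice 3 and 4. Hmga2 held 3.97, 6.01, 78.9 and 31.8 TPM in the same mice, so that mouse 4 lay below every injured mutant (51.6 to 148.7 TPM).

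Nearest to both Fos and Fosb were Nr4a1, an immediate early orphan nuclear receptor, and the hairpin genes Mir27a (ENSMUSG00000065444) and Mir23a (ENSMUSG00000065611), with differences of 0.997 to 1.12. The SDs of Fos and Fosb over the 16 libraries were 1.76 and 1.60 on this scale, so much of their variation was left unmatched. For Fosl1 the SD was 2.22 and the differences were 0.43 to 0.51, a closer likeness. Reads over these short hairpins may come from the longer primary transcript, which the table does not separate. Nr4a1 held 99.3, 30.1 and 22.9 TPM in intact wild-type mice 1 to 3 and 77.2, 56.7, 23.9 and 27.4 TPM in intact mutants 1 to 4. Chosen for likeness to Fos and Fosb, Nr4a1 was highest among intact mice in the same 3 that led in Fos, Fosb and Atf3. Injured mutant 2, at 87.4 TPM, lay above intact mutants 1 and 2. With injury Nr4a1 was not called, at -0.17 ± 0.49 in mutants (SE, adjusted p 0.8223 by limma).

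Other genes of the pathway were read from lists. Of 34 tested further immediate early genes, 19 were higher and 3 lower after injury in mutants, with a median change of 0.91 beside -0.08 for all tested genes. Over all tested genes 13.1% were higher and 30.8% changed in either direction there. Btg1, an antiproliferative gene, rose by 2.05 ± 0.22 (SE, adjusted p 0.000189 by limma) and Trib1, a pseudokinase, by 1.75 ± 0.26 (SE, adjusted p 0.000633 by limma). The 3 lower genes were Per1, a clock gene that serum also induces, at -1.86 ± 0.30 (SE, adjusted p 0.0009318 by limma), Sik1 at -0.93 and Zfp36l2 at -0.91, the last pair named after their values were seen. In the wild type 0 of the 34 were called by limma, and 11 had an unadjusted p under 0.05, against 17.2% of all genes. Between injured genotypes Btg1 alone was called, higher in mutants by 1.15 ± 0.22 (SE, adjusted p 0.03388 by limma).

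Of 19 tested bZIP factors that can pair or compete with Fos and Jun proteins, 9 were higher and 2 lower after injury in mutants (median 0.40), against 13.1% of all genes higher and 30.8% in either direction. The lower pair, named after their values were seen, were Jdp2 at -0.64 and Atf2 at -0.30. Nfil3, a transcriptional repressor, held 8.74 ± 1.57 TPM in intact mutants (SD, n = 4) and 43.1 ± 9.88 TPM in injured ones (SD, n = 5), a rise of 2.17 ± 0.19 (SE, adjusted p 7.117e-05 by limma). Cebpd, an acute-phase factor, rose by 2.38 ± 0.24 (SE, adjusted p 0.0001172 by limma) and Atf4, the effector of the integrated stress response, by 1.62 ± 0.22 (SE, adjusted p 0.0004759 by limma). Cebpd was the single gene of this list called in the wild type, at 1.53 ± 0.27 (SE, adjusted p 0.0491 by limma). Nfil3 and Atf4 were higher in injured mutants than in injured wild-type discs, by 1.04 ± 0.19 and 1.10 ± 0.22 (SE, limma adjusted p 0.02872 and 0.03717).

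Of 22 tested upstream genes (MAP kinases, ternary complex factors and SRF), 5 were higher and 2 lower after injury in mutants, with a median of 0.17. These 7 of 22 are a share near the 30.8% of all tested genes. Elk3, a ternary complex factor, rose by 0.92 ± 0.17 (SE, adjusted p 0.001766 by limma) and Map3k8, a kinase of the ERK cascade, by 0.59 ± 0.12 (SE, adjusted p 0.003795 by limma). Mapk11, Map2k3 and Srf, named after their values were seen, were higher by 1.49, 0.89 and 0.47, and Mapk3 was lower at -0.23. Map2k6, which activates p38, fell by 1.42 ± 0.27 (SE, adjusted p 0.002207 by limma), and it was lower in injured mutants than in injured wild-type discs, at -1.31 ± 0.27 (SE, adjusted p 0.04178 by limma). Of 15 feedback inhibitors of MAP kinase signalling, 6 were higher and 1 lower (Dusp8 at -0.79, named after its value was seen), with a median of 0.43, against 13.1% of all genes higher and 30.8% in either direction. Spry2 rose by 2.88 ± 0.48, Dusp5 by 1.38 ± 0.36 and Spred1 by 0.51 ± 0.12 (SE, adjusted p 0.001149, 0.0112 and 0.007896 by limma). In the wild type 0 genes of either list were called by limma, and 5 and 3 had an unadjusted p under 0.05, shares near the 17.2% of all genes.

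Among 19 tested genes commonly given as AP-1 targets, 14 were higher and 1 lower (Spp1, osteopontin, at -1.06, named after its value was seen) in injured mutants, with a median of 3.26, against 13.1% of all genes higher and 30.8% in either direction. Timp1, an inhibitor of matrix metalloproteinases, was the single gene of this list called in the wild type, and Ccl2, a monocyte chemokine, rose by 5.94 in mutants. Il11, an interleukin-6 family cytokine, was the single gene called between injured genotypes. The lists of the pathway were chosen with results of these data known, so their counts are descriptions.

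Macrophage marker sums were higher in every injured mouse than in any intact mouse, and neutrophil sums in most injured mice. The summed TPM of 9 macrophage markers ran from 160.8 to 261.6 in intact mice of both genotypes, from 273.7 to 4019 in injured wild-type mice and from 889.3 to 8275 in injured mutants. In mutants 8 of these 9 were called higher, against 13.1% of all tested genes. Injured wild-type mice 1 and 2, with Fosl1 and Ier3 near the intact level, had sums of 273.7 and 430.7, while mice 3 and 4 had 4019 and 2620. Fosl2 was above every intact library in all 4 injured wild-type mice. Among injured mutants, mouse 3, with the highest Fosl1, Junb and Ier3, had 1401, and mouse 2 had 8275. The 11 neutrophil markers summed to at most 19.8 TPM in intact mice, 11.5 to 191.1 in injured wild-type mice and 19.1 to 1023 in injured mutants. Injured wild-type mice 1 and 2 and injured mutant 5 did not exceed 19.8 TPM. In mutants 4 of 9 tested neutrophil markers (Csf3r, S100a8, S100a9 and Cxcr2) were called higher, against the same 13.1%. Mpo was listed at 0 in both intact groups and in injured wild-type discs, Ly6g in both intact groups, and Elane in injured mutants. The part of these cells in the rises of Fosl1, Fosl2, Junb and Ier3 was not tested.

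**Figure D4:**
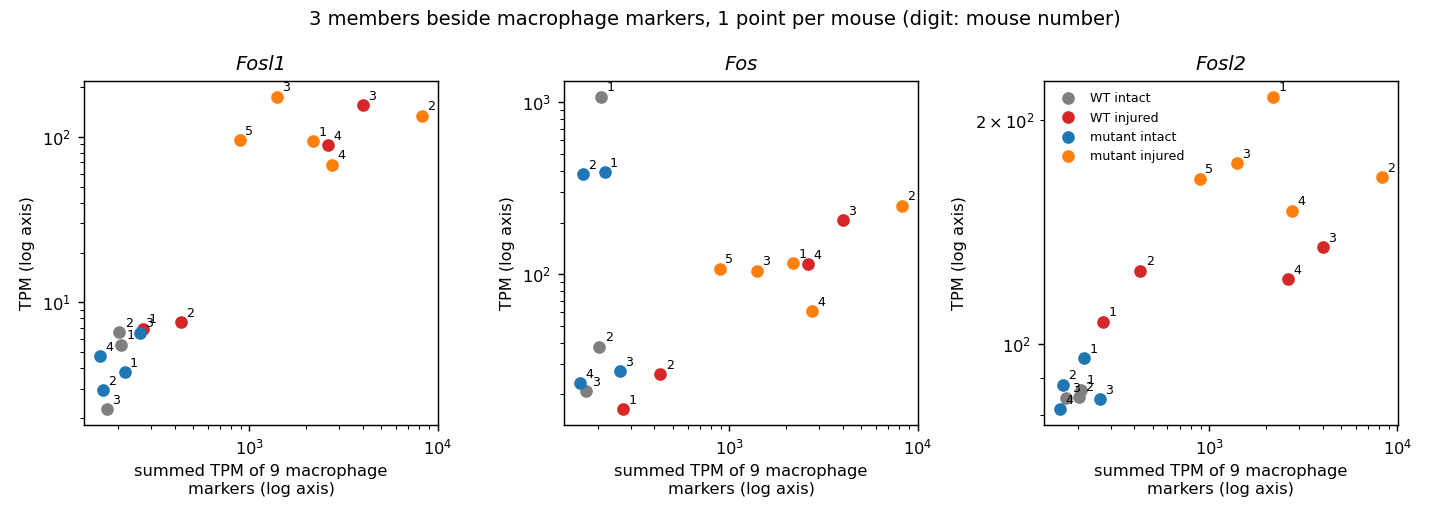
TPM of Fosl1, Fos and Fosl2 against the summed TPM of 9 macrophage markers on log axes, 1 point per mouse with its number. Fosl1 is high in the 7 injured mice with marker sums of at least 889.3, whereas the 3 highest Fos values are in intact mice with sums of at most 217.3.

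The same marker sums are given for the 3 intact mice with high Fos, Fosb and Atf3. Intact wild-type mouse 1 and intact mutants 1 and 2 had macrophage sums of 208.3, 217.3 and 166.3 TPM, within the intact range, and neutrophil sums of 15.0, 6.53 and 9.14 TPM. Skeletal muscle markers summed to 873.2 TPM in intact wild-type mouse 1, the highest of all libraries, but to 138.6 and 155.6 TPM in intact mutants 1 and 2, beside 128.3 and 151.2 TPM in intact mutants 3 and 4. Intact wild-type mouse 1 also had the highest red blood cell and endothelial sums of the intact mice, 728.1 and 16.9 TPM, and the lowest disc sum, 24516 TPM. The part of these differences in its Fos, Fosb, Egr1 and Atf3 levels was not tested. Marker sums of keratinocytes stayed between 31.7 and 58.6 TPM in all libraries, although single markers moved in opposite directions. With injury in mutants mean Sfn went from 16.1 to 33.9 TPM, Krt10 from 19.1 to 12.8 TPM and Krt1 from 1.04 to 0.289 TPM. Endothelial markers reached at most 16.9 TPM in intact discs, 182.6 in injured wild-type discs and 63.7 in injured mutants, and red blood cell markers spanned 68.1 to 1473 TPM. The summed notochordal markers were 7025 to 15816 TPM in intact discs, 3047 to 11134 in injured wild-type discs and 582.0 to 7023 in injured mutants. The disc genes summed to 24516 to 33410, 7338 to 23931 and 6114 to 17940 TPM in the same order. Chad weighed heavily on these sums, at means of 17881 TPM in intact and 3055 TPM in injured mutants. Hapln1 went the other way, from 592.7 to 1429 TPM, so the sums do not speak for each gene. Of the 8 disc genes, 5 had an estimate above 0 with injury in the wild type and 3 in mutants. In mutants 1 was called higher and 2 lower, against 13.1% of all genes higher and 30.8% in either direction.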

How the data were processed

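Libraries from pooled tail discs were made after depletion of ribosomal RNA, per the labels' protocols, although the molecule is labelled polyA RNA. The authors deposited TPM, each mouse in its own column of a single table; the submitters' processing notes name bcl2fastq 2.20 and GRCm38, and the aligner, counting method, use of strand and annotation are not given in the sources used here. Each column was tied to a mouse by its library name, and groups came from the titles. The log2(TPM + 1) values were fitted in 1 model with a mean per group (limma 3.58.1 in R 4.3.3, eBayes with trend), and p-values were adjusted by Benjamini-Hochberg over all 24188 tested genes of a comparison. Errors are limma's moderated standard errors. They rest on 1 estimate per gene of the spread between mice, pooled over all groups. Where groups differ in spread, the error can be too small for the wider group and too large for the tighter ones. The highest Fosl1 was 22.4 times the lowest in injured wild-type mice and 2.58 times in injured mutants. For Ier3 these ratios were 6.64 and 3.08. For these genes the wild-type errors and unadjusted p-values may look firmer than the mice allow. Positions and exon lengths came from GENCODE M21, which held 99.5% of the identifiers. Dividing TPM by the value of 1 read, given the exon length, put 94.2% to 95.0% of low values within 0.05 of a whole number, and gave the implied reads. On simulated data for injury in mutants (24188 genes, 200 of them changed), 83% of changes of 2 and 50% of changes of 1 on the log2 scale were recovered, with 10 false calls. The simulated noise was independent between genes. In the data 7438 genes were called for this comparison, so the simulated rates need not carry over.

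The 10 genes and the lists were chosen with earlier results of these data known. Named were all 10 genes, the 3 genes of each pathway list with the smallest adjusted p for injury in mutants, list genes called in another comparison, and the 3 genes nearest to each of the 3 most variable members. Genes of marker lists are given as sums, and a few are also named beside their sum. Promoter sequences are RefSeq's, on GRCm38.p6. Mouse numbers recur across groups without denoting the same animal, and samples were treated as unpaired. Alternatives were a pseudocount of 0.1, a stricter filter (mean TPM of at least 5) or none, quantile normalization, scaling by median of ratios, sample weights, a replicate block, a fit of only the compared groups, the library name as a covariate or subset, a skeletal muscle covariate, and leaving out each of the 16 mice. The name covariate set M libraries against A8 and D libraries together.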

Additional observations from a re-analysis of the deposited data

Results flagged for a closer look

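Jun lay at 112.3 TPM in injured mutant 2, far from the other 4 injured mutants at 41.1 to 54.6 TPM. It was the single value that stood apart among 30 sets examined (10 genes in the 3 groups of 4 or 5 mice), where chance alone would be expected to single out about 1 set in 20. The same library had the highest macrophage and neutrophil sums of its group, 8275 and 1023 TPM; their part in the value was not tested. Intact wild-type discs, with 3 mice, were too few for this check.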

How the results depend on the processing

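Of 1360 re-computed differences of the 10 genes, 1273 kept their direction and their side of the threshold, 18 lost the call, 9 gained it and 60 turned direction. Part of this was fixed in advance. Leaving out a mouse of a group not compared, or fitting only the groups compared, cannot alter the size of a difference between groups. Only its error and adjusted p can then move, also among the 28 alternatives counted next. The rises in mutants held in 28 of 28 alternatives for Fosl2, 27 for Fosl1 and Ier3 and 26 for Junb, in the same direction throughout. With only the M mutants the count for injury in mutants was 2 genes in place of 4 (Fosl2 and Ier3), with fewer mice. With only the A8 mutants it was 3, which were Fosl1 and Fosl2 higher and Jund lower, while Junb and Ier3 missed the threshold. The count between injured genotypes was 0 in place of 1 with quantile normalization, with only the groups compared, with the replicate block, and with only the A8 or only the M mutants; leaving out single mice gave 0 to 4, and 0 to 1 for injury in the wild type. Same-numbered libraries carry different library names. They deviated together (correlation over 0.1) in 1 of 21 pairs, with values from -0.217 to 0.151. Differently numbered pairs were not set beside them, so these values have no baseline. Apart from Fosl2 between injured genotypes the replicate block changed no call among the 10 genes. With all mice or a named subset, genes called overall ranged from 1 to 1070 between injured genotypes, 743 to 8559 for injury in mutants and 4 to 77 for injury in the wild type, against 222, 7438 and 28. Leaving out single mice moved them to between 7 (without injured wild-type mouse 2) and 2272 (without injured wild-type mouse 3), 5339 and 7970, and 2 (without intact wild-type mouse 1) and 463 (without injured wild-type mouse 1). The library name and its subsets concern mutants and gave no separate value for injury in the wild type, and a fit of only the groups compared gave none for the interaction, which uses all groups. Depth limits the lowest values most: Fosl1 rested on as few as 12 implied reads and Atf3 on 34.

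The turned directions were all of differences that were not called. In intact discs, mutant minus wild type turned with the A8 mutants alone for Atf3 (0.82), Fosb (1.40) and Jun (0.19), and with the M mutants alone for Fos (-1.89), Fosl1 (0.27), Fosl2 (-0.042) and Jund (-0.31). The library name as a covariate (M against A8 and D together) gave 0.28 for Atf3, 0.62 for Fosb and 0.12 for Jun. Sample weights gave -0.87 for Fos and -0.0041 for Jund, the muscle covariate -0.0084 for Fos and -0.053 for Fosl2, and quantile normalization 0.0084 for Fosl1. For injury in mutants the A8 mutants gave -0.14 for Atf3 and -1.18 for Fos, and the M mutants 0.94 for Fosb and 0.032 for Jun. Sample weights gave -0.21 for Junb with injury in the wild type, and the M mutants -0.14 for Jun between injured genotypes. The interaction with A8 mutants was -0.43 for Fos, -0.79 for Fosb and -0.055 for Jund. Leaving out single mice, intact genotype differences ran from -0.88 to 0.68 for Atf3, -1.21 to 0.061 for Egr1, -1.02 to 1.79 for Fos, -1.17 to 1.49 for Fosb, -0.40 to 0.21 for Fosl1, -0.013 to 0.061 for Fosl2, -0.52 to 0.095 for Jun, -0.88 to 0.14 for Junb and -0.20 to 0.18 for Jund. For injury in the wild type they ran from -1.13 to 0.43 for Atf3, -1.82 to 0.99 for Fos, -2.05 to 0.62 for Fosb and -0.17 to 0.85 for Junb. For injury in mutants they ran from -0.48 to 0.86 for Fos, -1.16 to 0.091 for Fosb and -0.40 to 0.077 for Jun. Between injured genotypes Jun ran from -0.12 to 0.31, and the interaction from -0.79 to 2.02 for Fos and -1.17 to 1.496 for Fosb. The cause was not tested.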
